A study of Homo sapiens with 8 samples.

Results

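A group of 44 genes that make, import and charge amino acids was followed through hypoxia and LOXHD1 enhancer silencing in Ewing sarcoma cells. The list was drawn up by function, with earlier results of these data known. It holds 17 enzymes of amino acid and one-carbon metabolism, 10 plasma membrane transporters and 17 cytosolic aminoacyl-tRNA synthetases. All 44 were found among the 60332 genes of the expression table, and all 44 were among the 15372 genes tested. Symbols are those of the table, so that AARS stands for the gene now named AARS1. Synthetases join each amino acid to its tRNA before it can enter a protein. When amino acids run short or the endoplasmic reticulum is stressed, the integrated stress response raises translation of the transcription factor ATF4. ATF4 is known to activate asparagine and serine synthesis, several transporters and many cytosolic synthetases, often through a promoter element that it reads together with C/EBP proteins.

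RNA was sequenced from SK-N-MC, an established Ewing sarcoma line, in 4 groups of 2 libraries. Control cells, infected with the empty lentiviral dCas9-KRAB vector, were kept in normoxia or in 1% oxygen for 16 h. In eKD1 and eKD2 cells, 2 separate guides directed dCas9-KRAB, a dead Cas9 joined to a repressor domain, to sequence beside the GGAA microsatellite that serves as LOXHD1 enhancer, and both eKD groups analysed here were in 1% oxygen for 16 h. All 8 libraries therefore come from puromycin-selected cells that carry dCas9-KRAB, and no cloning step is described, so each group is taken as a selected population. The paper calls eKD1 and eKD2 independent polyclonal pools. An effect of the guide can therefore not be told apart from that of the infection or selection of its pool. The treatment text of the labels names eKD1 and not eKD2. Libraries of normoxic eKD cells were not analysed here, so that hypoxia could be compared in control cells only.

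Values are FPKM, a level per kilobase of transcript. Column totals lay between 865107 and 1041457 FPKM, and the depth relative to the deepest library, read from the low values, lay between 55.7% and 100%. The absolute depth is unknown. All 8 Ewing sarcoma markers looked for, among them CD99, NKX2-2 and FLI1, were above 0, with summed levels between 1211 and 1220 FPKM in control hypoxia and between 1350 and 1520 FPKM in the other groups. Of 8 markers of other cell types, 7 were in the table, CD3E and KRT5 were listed at 0 in every library, and the summed level was between 198 and 234 FPKM, carried mostly by the matrix genes DCN and COL1A1. Among them PTPRC fell under hypoxia from 22.5 and 23.8 FPKM to 4.87 and 5.39 FPKM (limma adjusted p = 0.00684), and the part of other cells in the results below was not tested.

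LOXHD1, the gene whose enhancer was targeted, was listed at 156 and 169 FPKM in control normoxia, 93.0 and 91.1 in control hypoxia, 17.3 and 15.0 in eKD1 and 11.7 and 11.8 in eKD2. Its log2 change on the log2(FPKM + 1) scale, used for all changes here, was -2.44 (SE 0.0958 and adjusted p = 0.0371 by limma) in eKD1 and -2.87 (SE 0.0657 and adjusted p = 0.00617 by limma) in eKD2. Under hypoxia alone, in control cells, it was -0.81 (SE 0.0629 and adjusted p = 0.0082 by limma). It did not differ past the threshold between the 2 guides, with a log2 change of -0.43 (adjusted p = 0.162 by limma) in eKD2 against eKD1. The residual level was thus low in both silenced groups, and their libraries lay below all 4 control libraries.

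The promoters of these genes were searched for the 8 letters TGATGNAA, the core of the element that ATF4 reads with C/EBP proteins, and for their reverse complement TTNCATCA. RefSeq promoter sequences (table of GRCh38.p14) were given for 33 of the 44 genes, and the 250 bases before each gene start were read on both strands. The letters were found in 5 of the 33, or 15.15%, and in 870 of 27305 promoters of all genes, or 3.186%. The 5 windows of 30 bases around them are shown because they carry this match, 5′ to 3′ on the strand of the gene, with the matching letters in capitals.
ASNS: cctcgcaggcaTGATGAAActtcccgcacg
GOT1: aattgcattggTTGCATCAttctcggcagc
MTHFD1L: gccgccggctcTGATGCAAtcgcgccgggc
AARS: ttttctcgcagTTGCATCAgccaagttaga
IARS: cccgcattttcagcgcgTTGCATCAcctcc
Each window was matched exactly to GRCh37. The ASNS window is chr7:97501770-97501799 on the minus strand, with its letters 68 bases before the RefSeq start and inside an ASNS exon of GENCODE. The GOT1 window is chr10:101190561-101190590 on the minus strand, in no annotated gene. The MTHFD1L window is chr6:151187482-151187511 on the plus strand, in an MTHFD1L exon. The AARS window is chr16:70323578-70323607 on the minus strand, in exons of both AARS and the neighbour DDX19B. The IARS window is chr9:95055980-95056009 on the minus strand, in an IARS exon. Of the 18 genes with a promoter sequence that were called higher in eKD2, 3 held the letters, and of the 15 not called higher, 2 did. A match is a run of letters and not evidence of binding. PSAT1, SLC7A5 and GARS held none, which says only that these letters are absent from this window.

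The levels of the 44 genes set eKD2 apart from the other 3 groups. The eKD2 mean was the highest of the 4 groups in 36 of the 44 genes, against 29.2% of all genes tested. Control normoxia was highest in 5 of the 44, control hypoxia in 2 and eKD1 in 1, against 30.7%, 24.8% and 15.3% of all genes. The library kit does not mark strand, so reads in exons that overlap those of another gene cannot be assigned with certainty. In GENCODE more than 10% of the exonic bases were so shared in 8 of the 44 genes, namely ASNS (49.3%), CBS (36.8%), PYCR1 (29.7%), SLC1A5 (23.8%), MTHFD2 (14.1%), MARS (12.4%), MTHFD1 (11.1%) and WARS (10.6%). For ASNS and CBS none of the overlapping genes was protein-coding. In bulk RNA, fewer cells of a kind and less RNA per cell cannot be told apart.

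**Figure D1:**
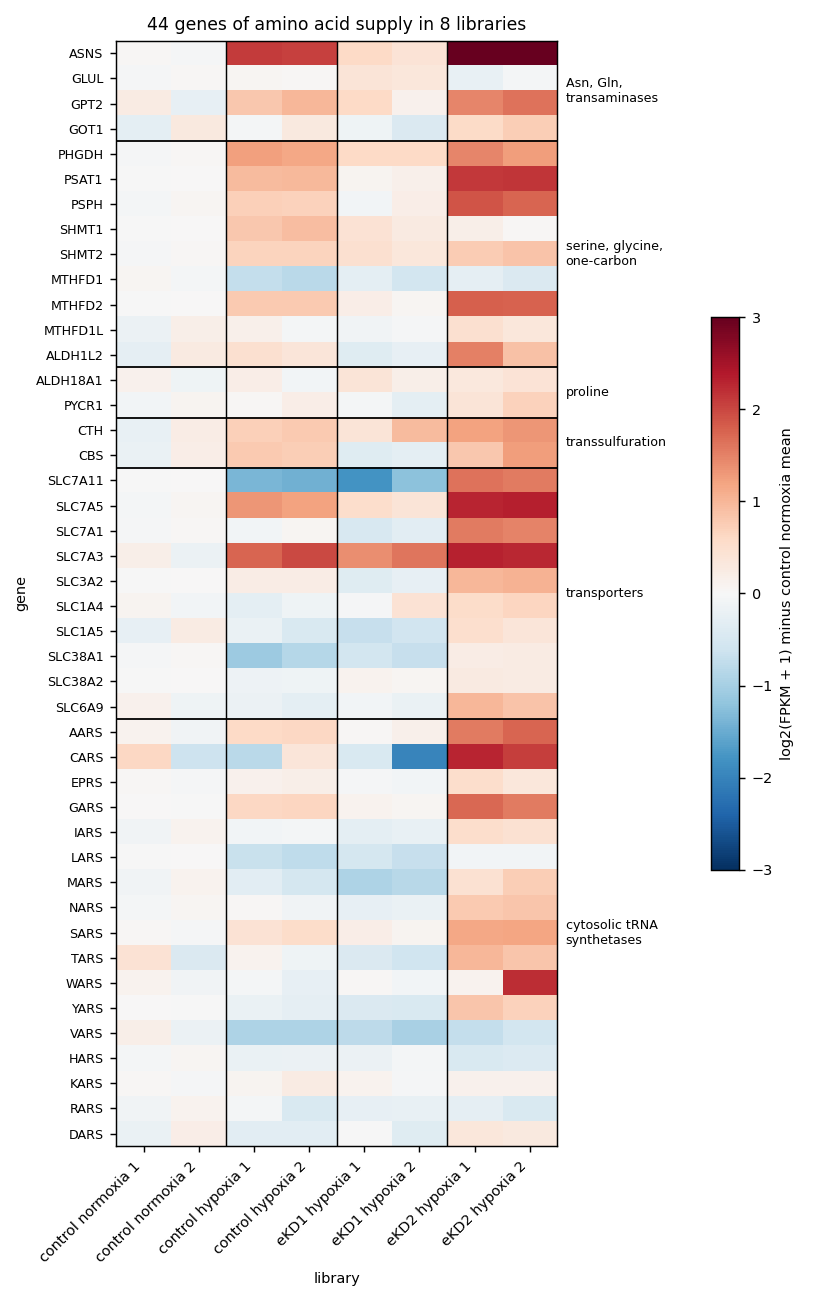
Heat map of the 44 genes (rows, grouped by role) in the 8 libraries (columns), with colour giving log2(FPKM + 1) minus the mean of the 2 control normoxia libraries. ASNS, PSAT1, SLC7A5, AARS and GARS are red in control hypoxia, pale in eKD1 and darkest in eKD2, and WARS is red in 1 eKD2 library only.

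Hypoxia in control cells raised ASNS and enzymes of serine, glycine and one-carbon metabolism. By limma, with a Benjamini-Hochberg adjusted p under 0.05 as the threshold in all comparisons, 14 of the 44 genes rose and 6 fell. Among all genes tested 16.2% rose and 16% fell, so that the share of risers was above that of all genes and the share of fallers slightly below. The median log2 change of the 44 genes was 0.052, beside 0.013 for all genes. Of the 9 serine, glycine and one-carbon enzymes, 6 rose and 1 fell. Of the 10 transporters, 3 rose and 2 fell, and of the 17 synthetases, 3 rose and 3 fell, shares near those of all genes for the synthetases. With columns scaled to equal FPKM totals the median of all genes moved to -0.19, that of the 44 to -0.18, and the split became 10 higher and 11 lower, against 10.2% and 25.7% of all genes, so that the share of fallers was that of all genes. Of the 17 synthetases 1 was then called higher and 7 lower.

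In eKD1, 31 of the 44 genes had a log2 change at or below 0 from control hypoxia, but no single gene passed the threshold. Limma called 0 of the 44 in either direction, and it called 0.013% of all genes higher and 0.052% lower. Before adjustment 24 of the 44 had a p under 0.05, against 21.7% of all genes. Both eKD1 libraries lay below both control hypoxia libraries in 26 of the 44, against 26% of all genes, and above both in 5, against 27.6%. The median log2 change was -0.27, beside 0.0024 for all genes. When all 8 libraries shared a single estimate of the spread, 12 of the 44 were called lower and 1, SLC38A2, higher, against 2.06% and 2.89% of all genes. Of those 12, 5 were serine and one-carbon enzymes (PHGDH, PSAT1, PSPH, SHMT1 and MTHFD2), and the other 7 were ASNS, CBS, SLC7A5, SLC3A2, AARS, GARS and SARS. The 6 largest log2 changes in eKD1 were those of ASNS with -1.57 (adjusted p = 0.0838 by limma), CBS with -1.09 (adjusted p = 0.102 by limma), CARS with -0.998 (adjusted p = 0.475 by limma), PSAT1 with -0.84 (adjusted p = 0.101 by limma), SLC7A5 with -0.80 (adjusted p = 0.102 by limma) and ALDH1L2 with -0.72 (adjusted p = 0.143 by limma).

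In eKD2 the direction was the opposite. Limma called 23 of the 44 higher than control hypoxia and 1, SHMT1, lower, against 5.8% and 3.81% of all genes. The median log2 change was 0.66, beside 0.052. The rise covered 9 of the 10 transporters and 10 of the 17 synthetases, and 3 of the 9 serine, glycine and one-carbon enzymes, of which 8 had a log2 change above 0. The difference between these role groups was not tested. Neither proline enzyme and neither transsulfuration enzyme passed the threshold. Without a variance trend limma called 1 of the 44. The hypoxia, eKD1 and eKD2 comparisons all use the same 2 control hypoxia libraries and are therefore not independent of each other.

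The direct comparison of the 2 guides uses no control library. By limma 12 of the 44 were higher in eKD2 than in eKD1 and 0 lower, against 0.286% and 0.117% of all genes. Before adjustment 35 of the 44 had a p under 0.05, against 23.6% of all genes. Both eKD2 libraries lay above both eKD1 libraries in 38 of the 44, against 31.9% of all genes. The median log2 difference was 0.98, beside 0.048. With the shared estimate of the spread 29 of the 44 were called higher and 1, GLUL, lower, against 5.26% and 3.79% of all genes. Limma called 0 without a variance trend. With any 1 library left out, 1 residual degree of freedom remained and limma called 0 of the 44 in every comparison. The 12 called with all libraries were ASNS, PSAT1, MTHFD2, SLC7A5, SLC7A1, SLC3A2, AARS, GARS, NARS, SARS, TARS and YARS.

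**Figure D2:**
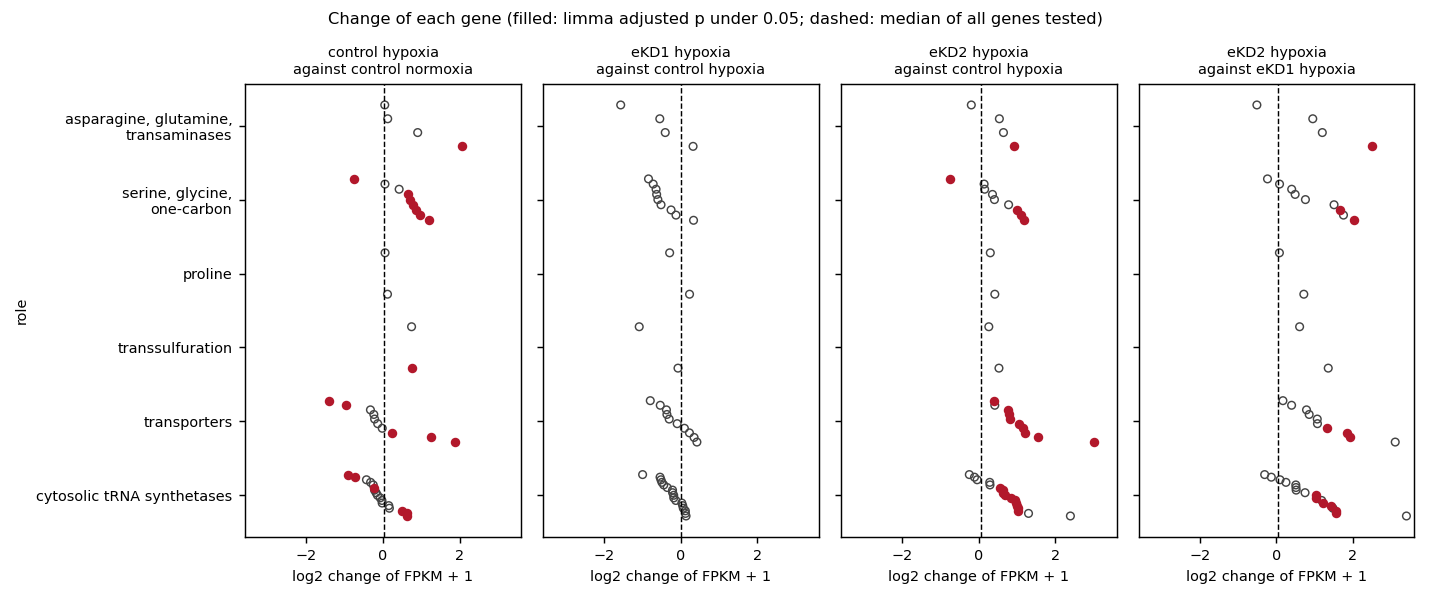
Log2 change of FPKM + 1 (horizontal axis) of each of the 44 genes by role (vertical axis) in 4 comparisons, filled where the limma adjusted p was under 0.05 and open elsewhere, with a dashed line at the median of all 15372 genes. The points of eKD1 against control hypoxia are all open, and most of eKD2 against eKD1 lie right of the dashed line.

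Asparagine synthetase, ASNS (chr7:97480989-97501854, minus strand on GRCh37), makes asparagine from aspartate and glutamine and is among the best known ATF4 targets. It was listed at 38.6 and 37.1 FPKM in control normoxia, 164 and 161 in control hypoxia, 57.7 and 50.6 in eKD1 and 308 and 309.7 in eKD2. The 4 groups did not overlap, and the eKD1 mean was 1.43-fold the normoxic mean. That log2 change was 0.50 (adjusted p = 0.0575 by limma, and 0.00596 by limma in the shared fit). The ASNS mean was 4.29-fold the normoxic mean in control hypoxia, with a log2 change of 2.07 (SE 0.0573 and adjusted p = 0.00344 by limma). It was 5.71-fold higher in eKD2 than in eKD1, with a log2 difference of 2.49 (SE 0.0831 and adjusted p = 0.0205 by limma). Against control hypoxia the log2 change was -1.57 (adjusted p = 0.0838 by limma) in eKD1 and 0.92 (adjusted p = 0.0207 by limma) in eKD2.

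The other nitrogen-handling enzymes moved less. Glutamine synthetase, GLUL, was at 97.1 and 100.4 FPKM in control normoxia, 102 and 102 in control hypoxia, 129 and 126 in eKD1 and 84.2 and 94.4 in eKD2, highest in eKD1 and lowest in eKD2 by mean. Its log2 difference between eKD2 and eKD1 was -0.51 (adjusted p = 0.0883 by limma). The mitochondrial alanine aminotransferase GPT2 was at 4.22 and 2.69 FPKM in control normoxia, 6.71 and 7.75 in control hypoxia, 5.58 and 3.78 in eKD1 and 11.2 and 12.6 in eKD2. The cytosolic aspartate aminotransferase GOT1 was at 15.3 and 23.3 FPKM in control normoxia, 18.2 and 23.4 in control hypoxia, 17.1 and 13.8 in eKD1 and 28.9 and 32.3 in eKD2. For GPT2 and GOT1 the eKD2 libraries were above all others, and neither passed the threshold in hypoxia, eKD1, eKD2 or between the guides.

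The 3 enzymes of the serine pathway act in the order PHGDH, PSAT1, PSPH. PHGDH, which oxidises 3-phosphoglycerate, was at 238 and 253 FPKM in control normoxia, 579.7 and 549 in control hypoxia, 373 and 371 in eKD1 and 676 and 585 in eKD2. It rose under hypoxia by a log2 change of 1.20 (SE 0.0565 and adjusted p = 0.00657 by limma), and its log2 change in eKD2 was 0.16 (adjusted p = 0.303 by limma). PSAT1 (chr9:80912041-80945009, plus strand), the transaminase of the pathway, was at 89.8 and 92.0 FPKM in control normoxia, 178 and 178 in control hypoxia, 96.6 and 101 in eKD1 and 401 and 405 in eKD2. Its eKD1 libraries lay a little above normoxia and far below control hypoxia, and its duplicates were nearly equal in every group. PSAT1 rose under hypoxia by 0.96 (SE 0.0478 and adjusted p = 0.00665 by limma) and in eKD2 by 1.17 (SE 0.0373 and adjusted p = 0.0119 by limma) on the log2 scale. It was 4.08-fold higher in eKD2 than in eKD1, a log2 difference of 2.02 (SE 0.0487 and adjusted p = 0.0156 by limma). PSPH, the phosphatase that releases serine, was at 27.3 and 30.2 FPKM in control normoxia, 47.4 and 47.0 in control hypoxia, 27.3 and 33.2 in eKD1 and 109 and 98.2 in eKD2. PSPH rose under hypoxia (0.70 on the log2 scale, SE 0.0828 and adjusted p = 0.0132 by limma) and in eKD2 (1.12 on the log2 scale, SE 0.0756 and adjusted p = 0.0273 by limma), while its log2 difference of 1.75 (adjusted p = 0.0529 by limma) between the guides missed the threshold. In eKD2 the later steps thus rose and PHGDH did not pass the threshold.

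Serine hydroxymethyltransferase splits serine into glycine and a one-carbon unit, and its cytosolic form fell in eKD2 while the mitochondrial form was not called there. The cytosolic SHMT1 was at 19.5 and 19.6 FPKM in control normoxia, 34.8 and 38.2 in control hypoxia, 26.8 and 23.7 in eKD1 and 22.4 and 20.2 in eKD2. It rose under hypoxia (0.86 on the log2 scale, SE 0.0872 and adjusted p = 0.0105 by limma) and was the only one of the 44 called lower in eKD2 (-0.75 on the log2 scale, SE 0.0975 and adjusted p = 0.0364 by limma). The mitochondrial SHMT2 was at 135 and 144 FPKM in control normoxia, 221 and 223 in control hypoxia, 196 and 177 in eKD1 and 237 and 254 in eKD2. It rose under hypoxia (0.66 on the log2 scale, SE 0.0543 and adjusted p = 0.00843 by limma), with a log2 change of 0.14 (adjusted p = 0.163 by limma) in eKD2. Of the exonic bases of SHMT2, 8.38% also lie in exons of a neighbour, among them those of NDUFA4L2.

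At the next folate steps MTHFD1 fell and MTHFD2 rose under hypoxia. MTHFD1, the cytosolic enzyme of 3 activities, was at 197 and 179 FPKM in control normoxia, 113 and 108 in control hypoxia, 152 and 127 in eKD1 and 156 and 139 in eKD2 and fell under hypoxia (-0.76 on the log2 scale, SE 0.0728 and adjusted p = 0.00976 by limma). MTHFD2 (chr2:74413299-74444692, plus strand), its mitochondrial counterpart, was at 107 and 108 FPKM in control normoxia, 186 and 185 in control hypoxia, 123 and 113 in eKD1 and 375 and 369.8 in eKD2. MTHFD2 rose under hypoxia (0.78 on the log2 scale, SE 0.0451 and adjusted p = 0.00691 by limma) and in eKD2 (1.00 on the log2 scale, SE 0.0377 and adjusted p = 0.0143 by limma), and was 3.15-fold higher in eKD2 than in eKD1 (1.65 on the log2 scale, SE 0.0643 and adjusted p = 0.0256 by limma). Its duplicates lay close together in all 4 groups, and no groups overlapped.
MTHFD1L, which makes mitochondrial formate, was at 21.6 and 28.3 FPKM in control normoxia, 27.7 and 23.8 in control hypoxia, 22.8 and 24.1 in eKD1 and 35.0 and 31.5 in eKD2. ALDH1L2, which oxidises mitochondrial formyl-folate, was low, at 1.26 and 2.25 FPKM in control normoxia, 2.76 and 2.504 in control hypoxia, 1.10 and 1.31 in eKD1 and 6.79 and 4.004 in eKD2. Neither was called in these 4 comparisons, and the fold of ALDH1L2 is understated by the added 1 FPKM.

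Of the enzymes of proline and cysteine synthesis, CBS alone was called in hypoxia, eKD1, eKD2 or between the guides. ALDH18A1, which starts proline synthesis from glutamate, was at 34.6 and 28.9 FPKM in control normoxia, 36.2 and 29.8 in control hypoxia, 41.5 and 35.9 in eKD1 and 39.5 and 42.0 in eKD2. PYCR1, which completes it in mitochondria, was at 98.4 and 109.6 FPKM in control normoxia, 107 and 119 in control hypoxia, 99.3 and 85.0 in eKD1 and 137 and 168 in eKD2. Neither was called in hypoxia, eKD1, eKD2 or between the guides. CTH, which releases cysteine from cystathionine, was at 4.41 and 6.35 FPKM in control normoxia, 9.31 and 9.82 in control hypoxia, 7.20 and 11.3 in eKD1 and 13.7 and 14.9 in eKD2. Against control normoxia CTH was called higher in eKD2 (1.27 on the log2 scale, adjusted p = 0.0329 by limma).
CBS, which forms cystathionine, was at 23.7 and 31.2 FPKM in control normoxia, 47.6 and 46.2 in control hypoxia, 21.1 and 22.1 in eKD1 and 48.4 and 66.2 in eKD2. It was called higher under hypoxia (0.77 on the log2 scale, SE 0.154 and adjusted p = 0.0342 by limma), and its log2 change in eKD1 was -1.09 (adjusted p = 0.102 by limma). With equal FPKM totals neither CBS nor CTH was called under hypoxia. The table also lists CBSL, a near-identical copy, at 31.4 and 31.9 FPKM in control normoxia, 42.8 and 53.7 in control hypoxia, 48.0 and 51.8 in eKD1 and 89.5 and 70.0 in eKD2, so the share of reads given to CBS is uncertain. For CBS and CBSL together the eKD1 mean was 0.751 of control hypoxia, where CBS alone gave 0.46. The eKD2 mean of the sum was 1.44-fold that of control hypoxia, where CBS alone gave 1.22. Between eKD2 and eKD1 the sum differed 1.92-fold and CBS alone 2.65-fold. The sums were not tested.

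Among transporters, the subunits of 2 heterodimers that share the heavy chain SLC3A2 went apart under hypoxia. SLC7A5 (chr16:87863629-87903113, minus strand), the light chain of the large neutral amino acid exchanger, was at 19.6 and 21.4 FPKM in control normoxia, 52.9 and 48.2 in control hypoxia, 30.03 and 27.3 in eKD1 and 104 and 107 in eKD2. It rose under hypoxia (1.26 on the log2 scale, SE 0.0949 and adjusted p = 0.00809 by limma) and in eKD2 (1.05 on the log2 scale, SE 0.0709 and adjusted p = 0.0273 by limma), and was 3.67-fold higher in eKD2 than in eKD1 (1.84 on the log2 scale, SE 0.0768 and adjusted p = 0.0261 by limma). Its pseudogenes SLC7A5P1 and SLC7A5P2 stayed below 3 FPKM in every library.
SLC7A11 (chr4:139085251-139163503, minus strand), the light chain that imports cystine in exchange for glutamate, was at 18.1 and 18.3 FPKM in control normoxia, 6.42 and 6.05 in control hypoxia, 4.56 and 7.24 in eKD1 and 58.4 and 55.7 in eKD2. It fell under hypoxia (-1.41 on the log2 scale, SE 0.106 and adjusted p = 0.00809 by limma) and rose 9.15-fold in eKD2 against control hypoxia (3.004 on the log2 scale, SE 0.0867 and adjusted p = 0.00989 by limma), the largest change of the 44 in that comparison. Its eKD1 libraries overlapped those of control hypoxia, with a log2 change of -0.096 (adjusted p = 0.851 by limma). Between the guides the log2 difference of 3.10 (adjusted p = 0.0529 by limma) missed the threshold, and its eKD1 duplicates differed by a factor of 1.59.
The heavy chain SLC3A2 (chr11:62623476-62656352, plus strand) was at 196 and 198 FPKM in control normoxia, 229.9 and 231 in control hypoxia, 152 and 165 in eKD1 and 391 and 409 in eKD2. SLC3A2 rose in eKD2 (0.79 on the log2 scale, SE 0.0428 and adjusted p = 0.027 by limma) and was higher in eKD2 than in eKD1 (1.33 on the log2 scale, SE 0.0651 and adjusted p = 0.0331 by limma). Its log2 change of 0.23 (adjusted p = 0.0283 by limma) under hypoxia turned to -0.014 with equal FPKM totals.

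Of the cationic amino acid transporters, SLC7A3 was raised by hypoxia and SLC7A1 in eKD2. SLC7A1 (chr13:30083551-30169825, minus strand), the widely expressed arginine and lysine importer, was at 17.1 and 18.1 FPKM in control normoxia, 16.4 and 18.3 in control hypoxia, 12.4 and 13.9 in eKD1 and 54.1 and 51.5 in eKD2. Normoxia and control hypoxia overlapped, and eKD2 lay far above both. SLC7A1 rose in eKD2 (1.55 on the log2 scale, SE 0.0883 and adjusted p = 0.0273 by limma) and was 4.02-fold higher there than in eKD1 (1.93 on the log2 scale, SE 0.098 and adjusted p = 0.0359 by limma). SLC7A3, another member of that family, was at 2.32 and 1.58 FPKM in control normoxia, 8.85 and 10.6 in control hypoxia, 6.73 and 7.93 in eKD1 and 13.5 and 13.1 in eKD2. SLC7A3 rose 4.98-fold under hypoxia (1.87 on the log2 scale, SE 0.203 and adjusted p = 0.0114 by limma), and its log2 change in eKD2 was 0.42 (adjusted p = 0.121 by limma).

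None of the 5 sodium-coupled carriers of small neutral amino acids was called higher under hypoxia. SLC38A1 was at 43.7 and 46.4 FPKM in control normoxia, 20.8 and 24.4 in control hypoxia, 30.3 and 27.6 in eKD1 and 52.4 and 53.6 in eKD2, and it fell under hypoxia (-0.97 on the log2 scale, SE 0.11 and adjusted p = 0.0123 by limma) and rose in eKD2 (1.20 on the log2 scale, SE 0.104 and adjusted p = 0.0284 by limma). SLC38A2, known to be induced when amino acids are scarce, was at 235 and 237 FPKM in control normoxia, 211 and 217 in control hypoxia, 254 and 247 in eKD1 and 283 and 280.1 in eKD2, with a log2 change of 0.39 (adjusted p = 0.0305 by limma) in eKD2. The glycine transporter SLC6A9 was at 24.7 and 20.5 FPKM in control normoxia, 19.8 and 18.1 in control hypoxia, 21.1 and 19.4 in eKD1 and 45.8 and 41.4 in eKD2 and rose in eKD2 (1.16 on the log2 scale, SE 0.0974 and adjusted p = 0.028 by limma).
The exchangers SLC1A4 and SLC1A5 carry alanine, serine, cysteine and, for SLC1A5, glutamine. SLC1A4 was at 25.3 and 22.6 FPKM in control normoxia, 19.2 and 21.6 in control hypoxia, 23.2 and 32.8 in eKD1 and 35.2 and 38.0 in eKD2, with a log2 change of 0.81 (adjusted p = 0.0345 by limma) in eKD2. SLC1A5 was at 166 and 238 FPKM in control normoxia, 173 and 145 in control hypoxia, 124 and 132 in eKD1 and 284 and 255 in eKD2, with a log2 change of 0.76 (adjusted p = 0.0435 by limma) in eKD2. All 5 of these carriers were called higher in eKD2 than in control hypoxia. The 10 transporters together summed to 748 and 821 FPKM in control normoxia, 758 and 740.3 in control hypoxia, 657 and 681 in eKD1 and 1321 and 1304 in eKD2.

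**Figure D3:**
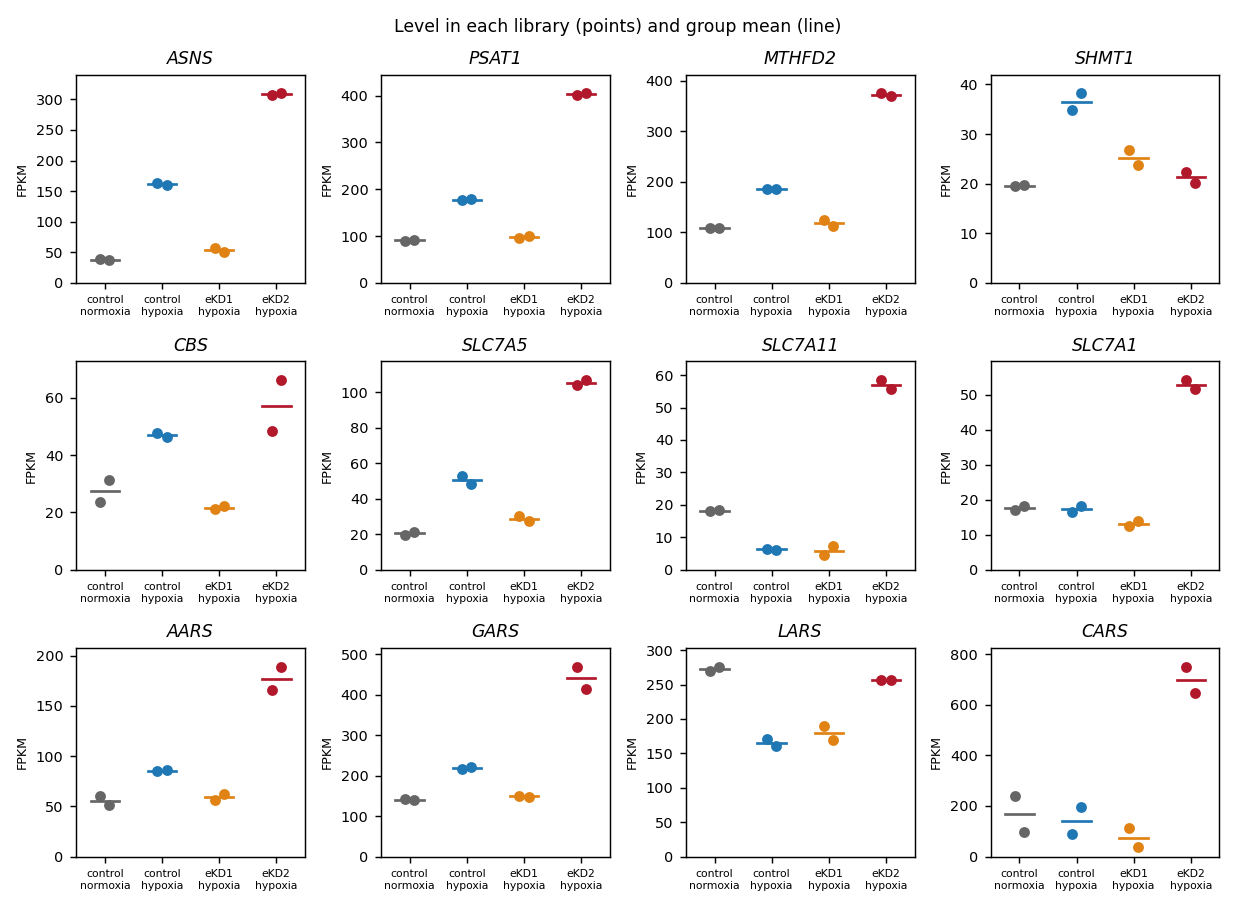
FPKM (vertical axis, from 0) of 12 genes in the 4 groups, with a point for each library and a line for the mean of the 2. ASNS, PSAT1, MTHFD2, SLC7A5, AARS and GARS share an order of groups with eKD2 highest, SHMT1 is highest in control hypoxia, LARS in control normoxia, and the CARS duplicates are wide apart outside eKD2.

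The cytosolic synthetases together summed to 2564 and 2452 FPKM in control normoxia, 2262 and 2283 in control hypoxia, 1953 and 1835 in eKD1 and 4268 and 4485 in eKD2. The eKD2 sums were the highest and the eKD1 sums the lowest, with no overlap between the groups. CARS alone gave 748 and 645 FPKM of the eKD2 sums, in the same order of libraries. AARS (chr16:70285886-70323610, minus strand), the alanyl enzyme, was at 59.7 and 51.3 FPKM in control normoxia, 84.8 and 85.9 in control hypoxia, 56.8 and 61.8 in eKD1 and 165 and 188 in eKD2. AARS rose under hypoxia (0.61 on the log2 scale, SE 0.095 and adjusted p = 0.0206 by limma) and in eKD2 (1.04 on the log2 scale, SE 0.0816 and adjusted p = 0.0273 by limma) and was higher in eKD2 than in eKD1 (1.56 on the log2 scale, SE 0.0958 and adjusted p = 0.0461 by limma). GARS (chr7:30620149-30673649, plus strand), the glycyl enzyme, which serves both cytosol and mitochondria, was at 142 and 139 FPKM in control normoxia, 215 and 220.3 in control hypoxia, 151 and 148 in eKD1 and 468 and 415 in eKD2. GARS rose under hypoxia (0.63 on the log2 scale, SE 0.0457 and adjusted p = 0.00809 by limma) and in eKD2 (1.01 on the log2 scale, SE 0.0737 and adjusted p = 0.0273 by limma), with a log2 difference of 1.56 (SE 0.0765 and adjusted p = 0.0331 by limma) between the guides. SARS, the seryl enzyme, was at 110.4 and 104 FPKM in control normoxia, 146 and 157 in control hypoxia, 124 and 113 in eKD1 and 243 and 245 in eKD2. SARS rose under hypoxia (0.50 on the log2 scale, SE 0.0664 and adjusted p = 0.0159 by limma) and in eKD2 (0.68 on the log2 scale, adjusted p = 0.0273 by limma). In AARS the eKD1 and normoxia libraries overlapped, and in GARS and SARS eKD1 lay above normoxia and below control hypoxia. With equal FPKM totals GARS alone was called higher under hypoxia, 1 of the 17 against 10.2% of all genes. AARS and SARS were not called higher there.

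LARS, VARS and YARS fell under hypoxia. The leucyl enzyme, LARS, was at 270.1 and 275 FPKM in control normoxia, 170.4 and 160.2 in control hypoxia, 190.1 and 169 in eKD1 and 257 and 256 in eKD2, with a log2 change of -0.72 (SE 0.0529 and adjusted p = 0.00809 by limma). The valyl enzyme, VARS, was at 147 and 117 FPKM in control normoxia, 68.1 and 68.8 in control hypoxia, 75.4 and 66.5 in eKD1 and 79.1 and 89.8 in eKD2, with a log2 change of -0.93 (SE 0.132 and adjusted p = 0.0178 by limma). The tyrosyl enzyme, YARS, was at 148 and 144 FPKM in control normoxia, 127 and 122 in control hypoxia, 107 and 107 in eKD1 and 259.7 and 236 in eKD2, with a log2 change of -0.23 (SE 0.0528 and adjusted p = 0.0447 by limma). YARS and LARS then rose in eKD2 (0.99 with adjusted p = 0.0273 by limma, and 0.63 with adjusted p = 0.0273 by limma), whereas the log2 change of VARS was 0.30 (adjusted p = 0.106 by limma) in eKD2. YARS was also higher in eKD2 than in eKD1, by a log2 difference of 1.20 (SE 0.0672 and adjusted p = 0.042 by limma).

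NARS, TARS, MARS, IARS and DARS rose in eKD2 without a called change under hypoxia. NARS, for asparagine, was at 184 and 198 FPKM in control normoxia, 196 and 179 in control hypoxia, 162 and 167 in eKD1 and 329 and 339 in eKD2, with a log2 change of 0.83 (adjusted p = 0.0273 by limma) in eKD2 and a log2 difference of 1.02 (adjusted p = 0.0299 by limma) between the guides. TARS, for threonine, was at 143 and 77.05 FPKM in control normoxia, 112 and 95.1 in control hypoxia, 77.1 and 69.3 in eKD1 and 211 and 188 in eKD2, with a log2 change of 0.94 (adjusted p = 0.0344 by limma) in eKD2 and a log2 difference of 1.43 (adjusted p = 0.0461 by limma) between the guides. In both, eKD2 was above all other libraries, and the normoxia duplicates of TARS differed by a factor of 1.85. MARS, the methionyl enzyme, was at 449 and 525 FPKM in control normoxia, 387 and 334 in control hypoxia, 254 and 274 in eKD1 and 665 and 811 in eKD2 and rose in eKD2 (1.03 on the log2 scale, SE 0.134 and adjusted p = 0.0364 by limma). Of its exonic bases, 12.4% also lie in exons of other genes, among them the stress gene DDIT3, which rose in eKD2 as well. IARS and DARS, for isoleucine and aspartate, rose in eKD2 by 0.56 (adjusted p = 0.0273 by limma) and 0.65 (adjusted p = 0.0273 by limma).

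CARS and WARS had duplicates far apart in some groups, and neither was called when limma fitted each comparison separately over all 15372 genes. CARS, the cysteinyl enzyme, was at 238 and 98.5 FPKM in control normoxia, 87.7 and 196 in control hypoxia, 111 and 38.1 in eKD1 and 748 and 645 in eKD2. Its 2 eKD2 libraries were above all 6 others, but its duplicates differed by factors of 2.24 to 2.92 in the other 3 groups and its log2 change in eKD2 was 2.39 (adjusted p = 0.0539 by limma). CARS was called in eKD2 with protein-coding genes only (adjusted p = 0.0184 by limma). Between the guides it was called with protein-coding genes only (adjusted p = 0.0412 by limma) and in the shared fit (adjusted p = 0.0305). WARS, the tryptophanyl enzyme, was at 81.0 and 69.3 FPKM in control normoxia, 72.5 and 63.2 in control hypoxia, 76.4 and 71.0 in eKD1 and 80.9 and 349 in eKD2, so that only 1 of the eKD2 libraries stood apart. At the other end, KARS, the lysyl enzyme of both cytosol and mitochondria, was at 112 and 107 FPKM in control normoxia, 116 and 130.2 in control hypoxia, 117 and 107 in eKD1 and 120.0 and 119 in eKD2. RARS, the arginyl enzyme, was at 51.3 and 60.1 FPKM in control normoxia, 53.1 and 40.5 in control hypoxia, 46.7 and 47.7 in eKD1 and 45.6 and 40.5 in eKD2. KARS and RARS had the smallest differences between the guides of the 17, 0.093 (adjusted p = 0.466 by limma) and -0.13 (adjusted p = 0.432 by limma) on the log2 scale. EPRS, HARS, KARS, RARS and VARS were not called in eKD2 against control hypoxia, nor were CARS and WARS.

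Against control normoxia the 2 silenced groups stood at different heights, with both oxygen and genotype differing in these comparisons. In eKD1, 3 of the 44 were called higher and 6 lower by limma, against 6.06% and 4.75% of all genes. With equal FPKM totals the split was 2 higher and 9 lower, against 4.45% and 10.3% of all genes. The higher ones were SLC7A3 (1.505 on the log2 scale, adjusted p = 0.0384 by limma), PHGDH (0.60 on the log2 scale, adjusted p = 0.028 by limma) and GLUL (0.36 on the log2 scale, adjusted p = 0.0416 by limma). The lower ones were SLC7A11 (-1.51 on the log2 scale, adjusted p = 0.0434 by limma), VARS (-0.88 on the log2 scale, adjusted p = 0.0486 by limma), MARS (-0.88 on the log2 scale, adjusted p = 0.0312 by limma), SLC38A1 (-0.62 on the log2 scale, adjusted p = 0.0396 by limma), LARS (-0.60 on the log2 scale, adjusted p = 0.0342 by limma) and YARS (-0.45 on the log2 scale, adjusted p = 0.032 by limma). In eKD2, 23 were called higher and 1 lower, against 11.5% and 7.83% of all genes, and with equal FPKM totals 19 higher and 4 lower, against 8.18% and 11.6%. The largest rises were ASNS (2.996 on the log2 scale, adjusted p = 0.00278 by limma), SLC7A5 (2.31 on the log2 scale, adjusted p = 0.0049 by limma), SLC7A3 (2.29 on the log2 scale, adjusted p = 0.0154 by limma) and PSAT1 (2.14 on the log2 scale, adjusted p = 0.00313 by limma). The next were PSPH (1.82 on the log2 scale, adjusted p = 0.00952 by limma), MTHFD2 (1.78 on the log2 scale, adjusted p = 0.00313 by limma), AARS (1.65 on the log2 scale, adjusted p = 0.0131 by limma), GARS (1.64 on the log2 scale, adjusted p = 0.00765 by limma), SLC7A11 (1.59 on the log2 scale, adjusted p = 0.0078 by limma) and GPT2 (1.55 on the log2 scale, adjusted p = 0.0296 by limma), and HARS (-0.43 on the log2 scale, adjusted p = 0.0426 by limma) was the one that fell. The median log2 change of the 44 genes from normoxia was -0.097 in eKD1 and 0.81 in eKD2, beside 0.012 and 0.072 for all genes.

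The hypoxia comparison and the comparison of the guides share no library. Of the 14 genes that rose under hypoxia, 8 were also higher in eKD2 than in eKD1, which is 57.1% of the 14 and 66.7% of the 12. Over all genes tested, limma called 44 genes higher in eKD2 than in eKD1. This set is not the list of 44 genes, but it contains the 12 of the list. Of those called, 28 also rose under hypoxia, or 63.6%. These 28 contain the 8 of the list, so the shares of 63.6% and 66.7% are not independent of each other. The 28 were 1.13% of the genes that rose under hypoxia. The 8 shared genes of the list were ASNS, PSAT1, MTHFD2, SLC7A5, SLC3A2, AARS, GARS and SARS. SLC7A1, NARS and TARS were higher in eKD2 than in eKD1 without a called change under hypoxia, and YARS fell under hypoxia. Over the 44 genes of the list the log2 changes of these 2 comparisons were weakly related, with Pearson's r of 0.148 and Spearman's rho of 0.243 across genes, which are not independent replicates.

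Other genes of the same pathways were read in eKD2 against the 5.8% of all genes called higher and the 3.81% called lower, with no test of their difference from the 44. The 17 mitochondrial synthetases, encoded by separate nuclear genes, had 0 called by limma in eKD2, 3 at an unadjusted p under 0.05 (32.8% of all genes) and 2 with the shared estimate of the spread (16.9% of all genes). Under hypoxia 5 of the 17 were called lower, against 16% of all genes. Their median log2 change in eKD2 was 0.12, beside 0.68 for the 17 cytosolic ones, and their summed level was 475 and 507 FPKM in control normoxia, 378 and 366 in control hypoxia, 437 and 385 in eKD1 and 388 and 445 in eKD2. Of the seryl pair, SARS rose under hypoxia, and the mitochondrial SARS2 fell, with a log2 change of -1.36 (SE 0.0944 and adjusted p = 0.00801 by limma). Of 7 further cytosolic charging genes, 5 fell under hypoxia and 2 rose in eKD2, FARSB (0.74 on the log2 scale, adjusted p = 0.0278 by limma), a subunit of the phenylalanyl enzyme, and AIMP2 (0.79 on the log2 scale, adjusted p = 0.0305 by limma), a scaffold of the synthetase complex. Of 21 further amino acid and one-carbon enzymes tested, 1 rose in eKD2, BCAT1 (1.04 on the log2 scale, adjusted p = 0.031 by limma), which transaminates branched-chain amino acids, and 1 fell, MAT2A (-0.61 on the log2 scale, adjusted p = 0.0273 by limma), which makes S-adenosylmethionine. Of 15 further transporters tested, 2 rose in eKD2, SLC6A15 (0.86 on the log2 scale, adjusted p = 0.028 by limma) and SLC38A5 (0.40 on the log2 scale, adjusted p = 0.0367 by limma). Between the guides limma called 0 genes in each of these 4 lists, and at an unadjusted p under 0.05 there were 2 of 17 mitochondrial synthetases, 4 of 7 charging genes, 4 of 21 enzymes and 4 of 15 transporters, against 23.6% of all genes. With the shared estimate of the spread these counts were 0, 2, 3 and 1, against 5.26% of all genes higher and 3.79% lower.

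**Figure D4:**
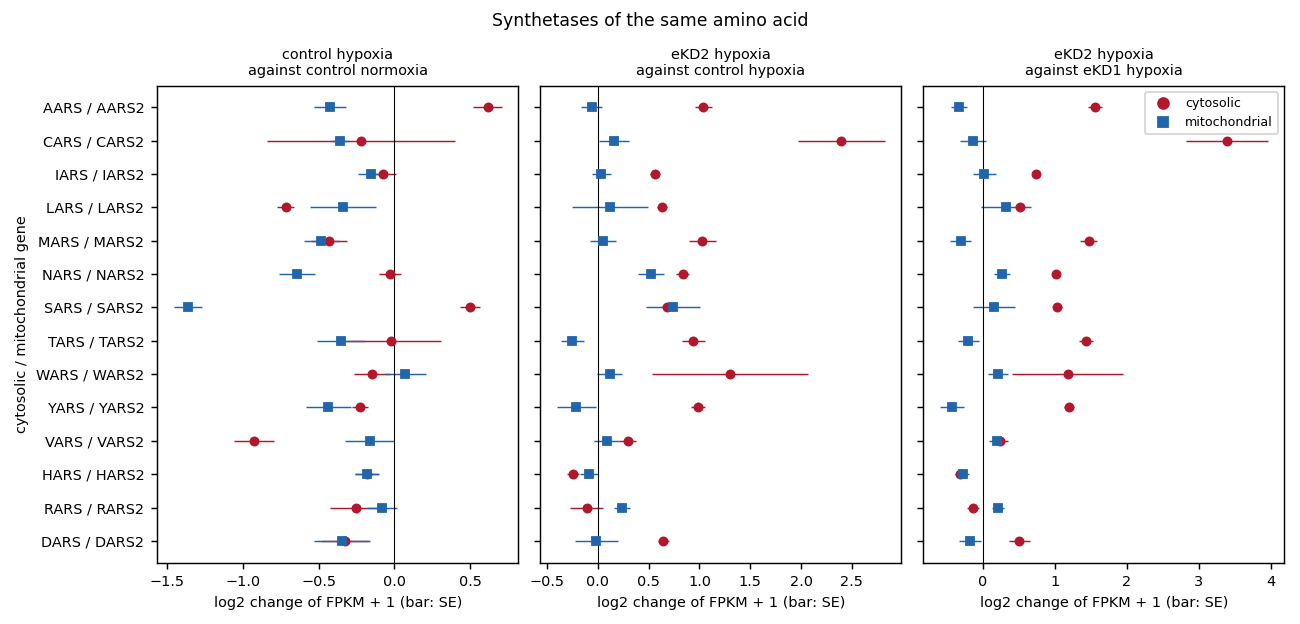
Log2 change of FPKM + 1 (horizontal axis, with its SE as a bar) of 14 cytosolic synthetases (circles) and the mitochondrial synthetase of the same amino acid (squares) in 3 comparisons. In eKD2 against eKD1 the circles reach 3.39 for CARS while the squares stay between -0.43 and 0.32.

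Of 15 genes of the integrated stress response, 12 rose under hypoxia, 10 rose in eKD2 and 7 were higher in eKD2 than in eKD1 by limma, and 0 were lower in these 3 comparisons. The shares of all genes called higher were 16.2%, 5.8% and 0.286%. ATF4 mRNA was at 259.9 and 273 FPKM in control normoxia, 331 and 333 in control hypoxia, 319 and 304 in eKD1 and 381 and 405 in eKD2, with a log2 change of 0.32 (adjusted p = 0.0187 by limma) under hypoxia and 0.24 (adjusted p = 0.0612 by limma) in eKD2. CHAC1, which degrades glutathione, was at 4.67 and 3.65 FPKM in control normoxia, 21.4 and 21.7 in control hypoxia, 10.2 and 9.04 in eKD1 and 80.9 and 87.2 in eKD2, and its log2 difference between the guides was 3.001 (SE 0.101 and adjusted p = 0.0205 by limma). DDIT3, the transcription factor CHOP, was at 40.9 and 39.3 FPKM in control normoxia, 141 and 136 in control hypoxia, 55.8 and 49.1 in eKD1 and 198 and 205 in eKD2, with a log2 difference of 1.92 (SE 0.0846 and adjusted p = 0.0273 by limma). TRIB3, a pseudokinase that binds ATF4, was at 6.63 and 8.34 FPKM in control normoxia, 22.4 and 23.6 in control hypoxia, 7.98 and 9.59 in eKD1 and 36.0 and 37.3 in eKD2, with a log2 difference of 1.95 (SE 0.124 and adjusted p = 0.0461 by limma). In eKD1, 1 of the 15, ATF5 (-1.68 on the log2 scale, adjusted p = 0.0355 by limma), was called lower than control hypoxia, against 0.052% of all genes. The log2 change was at or below 0 in 14 of the 15, with a median of -0.449, beside 0.0024 for all genes. With the shared estimate of the spread 8 of the 15 were called lower, against 2.06% of all genes.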

How the data were processed

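Per the methods of the study, poly-A selected RNA was made into TruSeq libraries, with a kit that does not mark strand, and biological duplicates were sequenced as single-end reads. The authors aligned reads to GRCh37 with STAR, assembled transcripts with cufflinks and computed the deposited FPKM values with cuffnorm. How cuffnorm scaled the libraries to each other is not given in the sources used here. The study tested counts with DESeq2, whereas limma was used here because FPKM values are not counts.

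Groups were taken from the sample titles. P-values set each difference between groups against the spread between duplicates, which limma moderates over all genes. The correlation of duplicates across genes was 0.954 to 0.963. How far separately infected pools of the same guide would differ was not measured. None of the 4 pairs was a copy, since at most 4 genes above 0 had equal values in both libraries. Tests ran on log2(FPKM + 1), which understates changes of low genes. A gene was tested if 2 or more of the 8 libraries reached 1 FPKM, which left 15372 genes, while 33177 genes were at 0 throughout. Every comparison had its own fit of 4 libraries in limma 3.58.1 under R 4.3.3 (functions lmFit and eBayes, prior variance following a trend). The fit was also run on simulated data for hypoxia, eKD1, eKD2 and the guides, but not for the comparisons against normoxia. The outcome of that run is not given here. P-values were two-sided and Benjamini-Hochberg adjusted over all genes tested, and genes with an adjusted p under 0.05 were called. SE is the moderated standard error of limma. Because the table holds no counts, no counting interval or detection limit was computed.

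The 44 genes, the other lists and the tests were chosen with earlier results of these data known. Values in every library are given for the 27 enzymes and transporters, for AARS, CARS, GARS, WARS and SARS, and for the 2 synthetases with the largest and the 2 with the smallest difference between the guides. By rule, changes with adjusted p are given for called genes, at most the 10 largest in each direction, or for the 6 largest changes where fewer than 6 genes were called, and for up to 3 genes that went against most of their role group. Further changes of called and uncalled genes are given outside this rule. ATF4, DDIT3, TRIB3 and CHAC1 stand for the stress list. Other synthetases with values, ATF5, PTPRC and the genes named from the remaining lists were picked after their values were seen.

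Gene positions and exons are those of GENCODE 44 on GRCh37, which is not the release the authors used. Promoter sequences were missing from the table used here for 11 of the 44 genes. Alternatives changed the pseudocount (to 0.1), the filter (none, or a mean of 5 FPKM), the scaling (median of ratios, or equal FPKM totals), the samples (all 8 in a shared fit, or each library left out), the replicate block, the variance trend and the genes tested (protein-coding).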

Additional observations from a re-analysis of the deposited data

Results flagged for a closer look

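Cells of the 2 guides against the LOXHD1 enhancer differed in the level of 12 of the 44 genes in the same oxygen, by limma on eKD2 against eKD1 with adjustment over all 15372 genes. Guide and cell pool cannot be told apart in this comparison. The log2 difference, eKD2 minus eKD1, was 2.49 for ASNS, 2.02 for PSAT1 and 1.65 for MTHFD2 among the enzymes. It was 1.93 for SLC7A1, 1.84 for SLC7A5 and 1.33 for SLC3A2 among the transporters. Among the synthetases it was 1.56 for AARS, 1.56 for GARS, 1.43 for TARS, 1.20 for YARS, 1.04 for SARS and 1.02 for NARS. Among all genes 0.286% were called higher in eKD2 than in eKD1. For LOXHD1 itself the eKD1 libraries held 17.3 and 15.0 FPKM and the eKD2 libraries 11.7 and 11.8 FPKM. No group of 4 or more libraries exists, so no single library was tested as an outlier.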

How the results depend on the processing

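The hypoxia count of 20 called genes stayed within 1.5 times under the 9 alternatives that kept all libraries. In eKD1, where 0 were called, the count was 3 without a filter, 1 with equal FPKM totals, 13 in the shared fit and 8 with protein-coding genes only, while the share of all genes called went from 0.0651% to 0.759%, 0.0846%, 4.95% and 1.27%. In eKD2 it was 24, and 1 without a variance trend (all genes 9.61% and 0.182%). Between the guides it was 12, and 7 without a filter, 30 in the shared fit, 26 with protein-coding genes only and 0 without a variance trend, with 0.403% of all genes, and 0.957%, 9.05%, 4.48% and 0.0325%, called. For eKD1 against normoxia it was 9, and 0 without a filter, 16 in the shared fit and 0 without a variance trend (all genes 10.8%, and 0.0258%, 24.7% and 1.94%). For eKD2 against normoxia it was 24. The replicate block on the S1 and S2 of the titles gave 0 in eKD2, 0 between the guides, 0 for eKD1 against normoxia and 4 for eKD2 against normoxia, where 0, 0, 0 and 51 of all genes were called. Same-numbered libraries showed little common deviation, with correlations of -0.057 to 0.126 across genes. Such correlations cannot show whether same-numbered libraries were prepared together, and the titles give only the number. Leaving out 1 library gave 0 to 0 called genes in all 6 comparisons, because 1 residual degree of freedom remained. The log2 change of SLC3A2 under hypoxia turned from 0.23 to -0.014 with equal FPKM totals, which moved the median of all genes from 0.013 to -0.19. Of the other values of named genes under alternatives that kept all libraries, 510 kept their side of the threshold, 107 lost it and 11 gained it, all in the same direction. In eKD1 the largest drop, that of ASNS, had adjusted p-values from 0.000857 to 0.249 over its alternatives. Depth is unknown in absolute terms, and the causes of these differences were not tested.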

Other observations

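Beyond the 44 genes, hypoxia in control cells raised 6 of 21 other amino acid and one-carbon enzymes and lowered 1 by limma, against 16.2% and 16% of all genes. With equal FPKM totals the split of these enzymes was 2 higher and 3 lower, against 10.2% and 25.7% of all genes. The largest rise was that of ASS1, which makes argininosuccinate for arginine synthesis, at 39.7 and 33.8 FPKM in control normoxia and 110.5 and 118 FPKM in control hypoxia, with a log2 change of 1.61 (SE 0.105 and adjusted p = 0.00775 by limma). The eKD1 libraries held ASS1 at 61.1 and 55.7 FPKM and the eKD2 libraries at 115 and 92.6 FPKM, and neither group was called against control hypoxia. The thymidylate synthase TYMS rose from 216 and 246 FPKM to 327 and 322 FPKM (0.49 on the log2 scale, adjusted p = 0.0215 by limma), and the proline and glutamate catabolic enzyme ALDH4A1 fell from 29.2 and 29.4 FPKM to 20.0 and 18.5 FPKM (-0.58 on the log2 scale, adjusted p = 0.0193 by limma). Of 15 other transporters 1 rose and 2 fell, shares at or below those of all genes. With equal FPKM totals their split was 1 higher and 6 lower, against 10.2% and 25.7% of all genes. The taurine carrier SLC6A6 rose from 8.02 and 8.75 FPKM to 36.5 and 37.4 FPKM (2.02 on the log2 scale, adjusted p = 0.00657 by limma), while SLC38A5 fell from 205 and 196 FPKM to 88.6 and 92.8 FPKM (-1.14 on the log2 scale, adjusted p = 0.00665 by limma) and the glutamate carrier SLC1A3 from 24.4 and 23.8 FPKM to 17.4 and 17.9 FPKM (-0.43 on the log2 scale, adjusted p = 0.0321 by limma). Adjusted p-values are from limma over all genes tested.

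The levels of the 2 enzymes of that list called in eKD2 differed in direction. BCAT1 was at 39.2 and 38.3 FPKM in control normoxia, 47.1 and 52.0 in control hypoxia, 42.9 and 53.8 in eKD1 and 94.6 and 111 in eKD2. MAT2A was at 356 and 373 FPKM in control normoxia, 374 and 363 in control hypoxia, 300.5 and 296 in eKD1 and 237 and 244 in eKD2. For BCAT1 the eKD1 libraries lay on both sides of the control hypoxia libraries, and for MAT2A they lay between control hypoxia and eKD2.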
